A study of Mus musculus with 18 samples.

Results

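The caput epididymis of C57BL/6J mice that had received no ethanol was compared between 2 collections of control tissue, with 3 RNA sequencing libraries in each. One set is labelled as control at 10 weeks of treatment, and the other as control of the cessation arm, which the series title places 1 month after ethanol was stopped in its treated companions. These 6 libraries were taken by their treatment labels from a series of 18, in which the other 12 came from mice given 6% EtOH or 10% EtOH, with 3 libraries per dose at each time. The sources used here do not give the ages of the mice, the days on which tissue was taken and processed, or whether controls had a sham treatment. Age, elapsed time and collection therefore cannot be told apart in this comparison, and since the labels do not say that each sample came from a separate animal, the p-values speak only of sample-to-sample spread.

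The caput is the first broad region of the epididymal duct. Its principal cells secrete proteins into the lumen around sperm in transit, and the duct is wrapped in smooth muscle, vessels and connective tissue with resident immune cells. Part of what follows concerns the immediate early response, a program in which cells answer a stimulus within minutes by transcribing genes whose activators are already present in the cell. Its first products are transcription factors such as the AP-1, Egr and Nr4a families, followed by feedback regulators that end the response and by secreted cytokines and chemokines.

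The 6 libraries held 12.9M to 19.4M assigned reads, and 18618 of 53819 gene entries passed the filter on low counts. The defining genes of the caput were present in every library: 7 caput markers together took 6.62%, 6.98% and 6.84% of the reads at 10 weeks and 6.39%, 7.73% and 4.16% in the cessation set (replicates 1, 2 and 3 in each case, an order kept below). The cessation libraries were less alike than the 10-week libraries, with a biological coefficient of variation of 35.2% against 11.7%. On the first principal component of the 6 libraries, which carried 54.3% of the variance, cessation replicate 2 lay at -32.8. This was among the 10-week libraries at -51.3 to -24.7, while cessation replicates 1 and 3 lay at 52.6 and 88.9. On the second component, which carried 16.96%, cessation replicate 2 lay at -46.74, outside the 10-week range of 9.871 to 26.02. Cessation replicate 1 lay at -32.99 on it, and cessation replicate 3 at 22.88, within that range.

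In the cessation controls 22 genes rose and none fell at a Benjamini-Hochberg adjusted p under 0.05 in edgeR's quasi-likelihood test, which is 0.118% of the genes tested. Of the 22, 11 belong to the AP-1, Egr and Nr4a, and early feedback lists of the immediate early response, and Cxcl1 and Il1b are inflammatory signals. Among genes with lower values after cessation the smallest adjusted p was 0.0631. Without adjustment 3774 genes had p under 0.05, of which 2258 were higher and 1516 lower after cessation, where 931 would be expected by chance. All 22 genes stood higher in each cessation library than in any 10-week library, as did 12% of all tested genes, and 13.1% of tested genes were lower without overlap. The counts of list members below stand beside these shares and beside the 53.8% of all tested genes that had a fold change above 0. All lists were chosen with earlier results of these data known, so these counts are a description and not an independent test. Cessation replicate 2 had the lowest level of the cessation set for 21 of the 22, and replicate 3 had the highest for 19. The median log2 ratio of the 22 to the 10-week mean was 3.23 in replicate 1, 1.48 in replicate 2 and 3.96 in replicate 3.

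**Figure D1:**
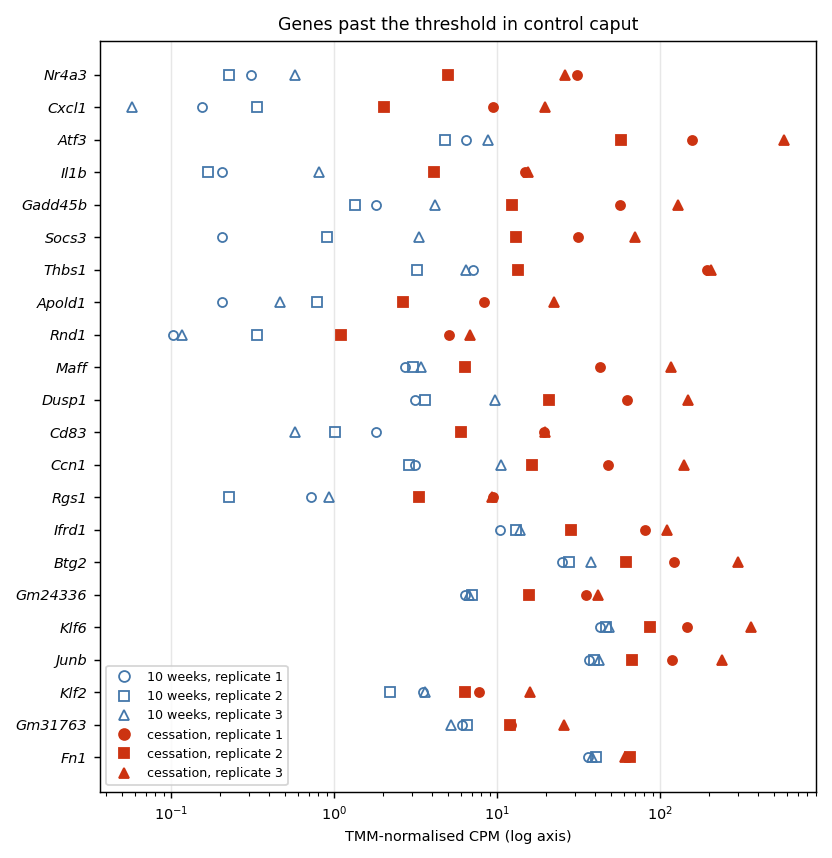
Levels of the 22 genes past the threshold (vertical, ordered by fold change) in TMM-normalised CPM on a log axis, with open blue symbols for the 3 control libraries of 10 weeks and filled red symbols for the 3 control libraries after cessation. No row overlaps between the sets, and cessation replicate 2 (filled squares) is the lowest red point for 21 of the 22 genes.

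The number of genes called changed with single libraries and with the test used. Without 10-week replicates 1, 2 and 3 in turn it was 1, 0 and 10, and without cessation replicates 1, 2 and 3 it was 9, 2747 and 6. With the 6 control libraries fitted alone, no gene passed (smallest adjusted p 0.141, 3295 genes with unadjusted p under 0.05). DESeq2 called 993 genes, with 734 higher and 259 lower, and edgeR without the low-count filter called 1740. Each included all 22, as did the fit without cessation replicate 2. In limma 25 genes were called, with 16 of the 22 among them. Without cessation replicate 3 the calls held 6 of the 22, and without 10-week replicate 3 they held 8.

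Among the transcription factors, Nr4a3, an orphan nuclear receptor induced by many stimuli, had 0.308, 0.225 and 0.578 CPM at 10 weeks and 30.8, 4.97 and 26.3 CPM after cessation. Its log2 fold change was 5.78 ± 0.71 (SE), with an adjusted p of 0.00339. The 10-week level rests on few reads, 6, 4 and 10 in the 3 libraries, so the size of the change depends on the prior count used in fitting. Atf3, a stress-induced member of the AP-1 family, had 6.47, 4.79 and 8.85 CPM at 10 weeks and 157, 57.8 and 575 CPM after cessation, a log2 change of 5.30 ± 0.67 (SE). The lowest cessation library thus stood well above the highest of 10 weeks for Atf3, although cessation replicates 2 and 3 differed from each other by more than did any pair of 10-week libraries.

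Maff, a small Maf protein that pairs with other AP-1 factors, had 2.72, 3.04 and 3.41 CPM at 10 weeks against 42.7, 6.32 and 116 CPM. Junb, an AP-1 subunit, was expressed in both sets, at 36.5, 39.2 and 41.9 CPM and then at 118, 67.3 and 240 CPM. The 10-week values of both genes were close to each other, while the cessation values spread widely. Of the 12 AP-1 genes tested, Atf3, Maff and Junb rose, all 12 had a fold change above 0, and 6 had no overlap between the sets. Their median log2 change was 1.84, beside 0.05 over all tested genes, and it was 1.15 without cessation replicate 3.

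Fos and Fosb, the classic early AP-1 subunits, are given here after their values were seen. Fos had 1.69, 2.31 and 22.4 CPM at 10 weeks and 59.0, 40.9 and 118 CPM after cessation, and Fosb had 0.514, 0.507 and 10.9 CPM and then 64.1, 42.8 and 125 CPM. For both, 10-week replicate 3 stood apart from the other two libraries of its set, and neither gene passed the test with all libraries (adjusted p of 0.0866 and 0.0534 in edgeR). Without that library both passed in edgeR, with log2 changes of 5.18 for Fos (adjusted p 1.3e-04) and 7.22 for Fosb (adjusted p 1.4e-05), against 3.06 and 4.30 with it. Over the 14 alternative fits Fos passed in 5 and Fosb in 8, DESeq2 and limma among them for both. Jun, the partner of Fos, had a log2 change of 1.83 with an adjusted p of 0.0604.

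In the Egr, Nr4a and Krüppel-like list, Nr4a3, Klf6 and Klf2 rose among 17 genes tested, 16 had a fold change above 0 and 12 had no overlap in the higher direction, with a median of 1.61. Klf6 and Klf2 are zinc finger factors, and Klf2 is best known from endothelium under flow. Klf6 had 42.9, 46.9 and 48.3 CPM at 10 weeks and 146, 86.9 and 363 CPM after cessation. Klf2 was much closer between the sets, with 3.49, 2.20 and 3.59 CPM and then 7.72, 6.32 and 15.9 CPM. Egr1 and Nr4a1, singled out after their values were seen, had log2 changes of 1.82 (adjusted p 0.0879 in edgeR) and 1.15 (adjusted p 0.0738 in edgeR).

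The feedback regulators formed the next group, with 5 of 28 tested genes called, 25 above 0, 10 without overlap and a median of 0.78, which was 0.30 without cessation replicate 3. Gadd45b, a growth arrest and stress kinase regulator, had 1.80, 1.35 and 4.16 CPM at 10 weeks and 56.4, 12.3 and 129 CPM after cessation. Socs3, which shuts off cytokine receptor signalling, had 0.205, 0.901 and 3.30 CPM and then 31.5, 13.1 and 69.9 CPM. Both shared the order of the cessation libraries seen above, with replicate 3 highest and replicate 2 lowest. Dusp1, a phosphatase that inactivates MAP kinases and is also a glucocorticoid target, had 3.13, 3.60 and 9.66 CPM and then 62.8, 20.9 and 148 CPM, a log2 change of 3.82 ± 0.58 (SE). Ccn1, a secreted matrix-associated protein, rose by a log2 change of 3.64, and Btg2, an antiproliferative early gene, by 2.42, from 25.1, 27.6 and 37.9 CPM to 122, 62.2 and 300 CPM. Over the 3 early lists together, 57 genes were tested, 11 were called, 53 were above 0 and 28 stood higher without overlap, with a median of 1.34. The corresponding shares over all tested genes are 0.118% called, 53.8% above 0 and 12% higher without overlap. Since the lists were chosen with earlier results of these data known, the gap between these shares was not an independent test. Early genes near 0 in the 10-week controls, Nr4a3 among them, could pass the low-count filter only through libraries where they were higher. For the early lists, singly and together, the counts above 0 and without overlap, and the medians, therefore depend in part on the filter.

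Because so many of these genes are known targets of stimulus-responsive factors, the 250 bases before their start sites were searched for 3 elements on both strands. The windows came from RefSeq on build GRCm38.p6, matched by symbol, and 16 of the 22 genes had one. Only the window listed first for each gene was used, and the set of all windows includes genes that were not tested here. The cAMP response element, TGACGTCA, lay in 2 of the 16 windows, those of Dusp1 and Btg2, and in 1.62% of all 27025 windows. The AP-1 site TGANTCA was in none of the 16 and in 6.87% of all windows, and the CArG box was in 1 of the 16, that of Gm31763, and in 1.40% of all. Both windows with a cAMP response element are printed, the element in capitals, to show where it lies before each start, and neither holds another of the 3 elements. Their positions are chr17:26508473-26508722 on the minus strand for Dusp1 and chr1:134079156-134079405 on the minus strand for Btg2.
Dusp1: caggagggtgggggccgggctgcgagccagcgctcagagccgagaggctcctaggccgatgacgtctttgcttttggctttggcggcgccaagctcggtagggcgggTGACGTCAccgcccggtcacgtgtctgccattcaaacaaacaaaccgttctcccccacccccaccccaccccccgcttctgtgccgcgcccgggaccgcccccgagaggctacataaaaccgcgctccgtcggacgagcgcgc
Btg2: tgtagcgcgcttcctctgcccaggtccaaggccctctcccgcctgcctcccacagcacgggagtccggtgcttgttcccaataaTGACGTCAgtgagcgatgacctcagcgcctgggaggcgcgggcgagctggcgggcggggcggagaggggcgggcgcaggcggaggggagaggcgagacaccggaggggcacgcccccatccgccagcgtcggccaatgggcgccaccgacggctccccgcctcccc

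Inflammatory signals had the highest median of the lists examined. Of 30 cytokines and chemokines tested, Cxcl1 and Il1b rose, 29 were above 0, 18 stood higher without overlap and the median log2 change was 2.30. A member near 0 in the 10-week controls could pass the low-count filter only through libraries where it was higher. The counts above 0 and without overlap, and the median, therefore depend in part on the filter. Cxcl1, a chemokine that attracts neutrophils, had 0.154, 0.338 and 0.0578 CPM at 10 weeks and 9.38, 2.03 and 19.8 CPM after cessation. Il1b, which encodes interleukin 1 beta, had 0.205, 0.169 and 0.810 CPM and then 14.8, 4.11 and 15.4 CPM, with a log2 change of 4.85 ± 0.69 (SE). These genes were counted with at most 14 reads in any 10-week library, and with 33 reads or more in each cessation library.

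Cd83, a surface protein of activated dendritic cells and B cells, rose by 3.71 ± 0.47 (SE) from 1.80, 1.01 and 0.578 CPM to 19.5, 6.01 and 19.6 CPM. It was the gene called most often when 1 control library was left out, in 5 of 6 such fits. Rgs1, a regulator of G protein signalling in leukocytes, had 0.719, 0.225 and 0.925 CPM and then 9.50, 3.31 and 9.33 CPM. Cessation replicates 1 and 3 were nearly equal for both genes. Apold1, an early gene of endothelium, and Rnd1, a small GTPase that loosens cell adhesion, rose by log2 changes of 4.50 and 4.49 from levels under 1 CPM in all 10-week libraries. Ifrd1, an early transcriptional regulator, had 10.5, 13.1 and 13.8 CPM at 10 weeks and 80.7, 28.5 and 110 CPM after cessation.

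Matrix genes gave 2 calls that did not look alike. Thbs1, the adhesive glycoprotein thrombospondin 1, had 7.14, 3.21 and 6.42 CPM at 10 weeks and 193, 13.4 and 206 CPM after cessation. Fn1, which encodes fibronectin, had 36.1, 40.3 and 38.2 CPM and then 63.2, 65.5 and 61.1 CPM. The 3 cessation values of Fn1 lay within a narrow band, and replicate 2 was the highest of them, the only one of the 22 called genes of which this was so. Its log2 change was 0.73 ± 0.13 (SE), the smallest of the 22, with an adjusted p of 0.0417. Among the 35 matrix glycoprotein and remodelling genes tested, 34 were above 0 with a median of 1.05. Of the 35, 6 stood higher without overlap, beside 12% of all tested genes. The 39 collagens had no call, 37 were above 0, 3 did not overlap and the median was 0.74, or 0.49 without cessation replicate 3.

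Among other stress genes, Ddit3, the CHOP factor of the integrated stress response, had 8.52, 7.88 and 11.5 CPM at 10 weeks and 75.2, 15.8 and 277 CPM after cessation, without passing (adjusted p 0.0594 in edgeR). The 30 genes of that list had a median of 0.10, with 19 above 0. That median was 0.24 without cessation replicate 2 and 0.17 without 10-week replicate 1. Heat shock genes had a median of 0.33 with 15 of 22 above 0, which turned to -0.05 without cessation replicate 3 and was 0.10 with length and GC trends removed. Unfolded protein response genes had a median of -0.22 with 7 of 25 above 0, which ranged from -0.41 to -0.09 without cessation replicates 2 and 3 respectively. In the glucocorticoid list, Dusp1 was the 1 call among 21 genes, 18 were above 0 and the median was 0.78, or 0.36 without cessation replicate 3. Hmox1, the haem-degrading enzyme, had a log2 change of 3.04 (adjusted p 0.0738 in edgeR). Hmox1 had 5.28 CPM in cessation replicate 2, inside the 10-week range of 4.45 to 5.96 CPM, and 38.3 and 82.2 CPM in replicates 1 and 3.

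Lists that mark endothelium, smooth muscle and fibroblasts had no called member, and their medians separated cessation replicates 1 and 3 from replicate 2. All 20 endothelial markers had a fold change above 0, with a median of 1.57 (0.83 without cessation replicate 3), yet none was free of overlap. Their summed level was 163, 90.6 and 168 CPM at 10 weeks and 371, 108 and 730 CPM after cessation, so replicate 2 lay within the 10-week range. For 21 smooth muscle genes the median log2 ratio was 1.83, -0.08 and 2.25 in the 3 cessation libraries. Acta2, smooth muscle actin (named after its values were seen), had 74.4, 53.8 and 113 CPM at 10 weeks and 274, 74.9 and 496 CPM after cessation. Its relative Actg2, likewise named after the fact, had 1320, 1540 and 1026 CPM and then 925, 1513 and 482 CPM. In bulk tissue, more cells of a type and more RNA per cell cannot be told apart.

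Of the immune lists, macrophage, interferon response and MHC class II genes showed the same division of libraries, and B cell and neutrophil markers did not. All 21 macrophage markers were above 0, 9 of them without overlap, with a median of 0.94 (0.57 without cessation replicate 1). They summed to 441, 447 and 455 CPM at 10 weeks and to 928, 417 and 979 CPM after cessation, so that replicate 2 was below the 10-week range. All 38 interferon response genes were above 0, with a median of 1.08 (0.58 without cessation replicate 1), and 4 of them were free of overlap, near the 12% of all tested genes. Their medians by library were 1.52, -0.16 and 1.07. Genes of MHC class II presentation had a median of 0.95 with 12 of 16 above 0, or 0.38 without cessation replicate 1. The 21 T and NK cell markers had a median of 1.16, which was 0.08 without cessation replicate 1 and 0.70 in limma. They summed to 408, 428 and 324 CPM at 10 weeks and to 362, 458 and 200 CPM after cessation, highest in replicate 2, and the sum was dominated by Klrb1c, whose log2 change was -0.30 (chosen after its values were seen). The 8 B and plasma cell markers tested had medians of 0.63, 0.65 and 0.21 in the 3 cessation libraries, with 6 above 0 in the fit. The T and NK cell list has 29 entries, and the B and plasma cell list 23. Members near 0 in the 10-week controls, such as Il7r and Jchain, could pass the low-count filter only through libraries where they were higher. The medians and the counts above 0 of both lists therefore depend in part on the filter. Only 2 neutrophil and mast cell markers of 16 were tested, with medians of 0.12, -0.06 and 0.09. No marker of endothelium, smooth muscle, fibroblasts, macrophages, or T and NK cells was at 0 in all 6 control libraries. The part of these markers in the early and inflammatory calls was not tested.

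**Figure D2:**
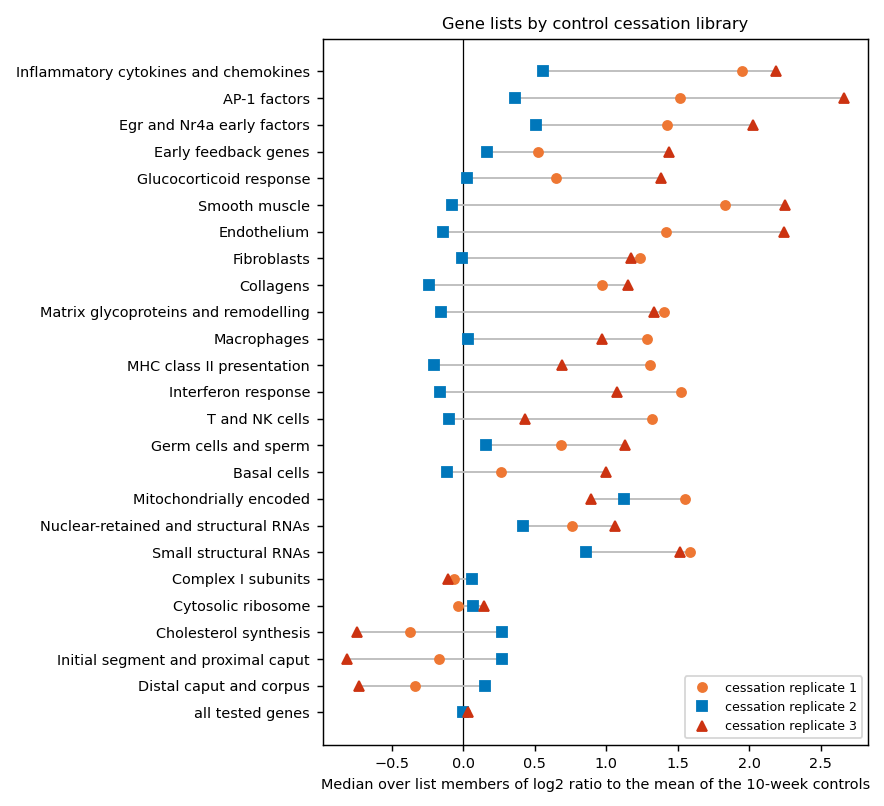
Median, over the tested members of each list, of the log2 ratio of each control cessation library to the mean of the 3 control libraries of 10 weeks (horizontal); orange circles, blue squares and red triangles are cessation replicates 1, 2 and 3. Replicate 2 lies near 0 for smooth muscle (-0.08) and endothelium (-0.14), but at 0.56 for inflammatory signals and at 1.12 for mitochondrially encoded genes.

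Genes of epithelial identity gave no call. The 25 initial segment and proximal caput genes had a median of -0.11, with medians of -0.17, 0.27 and -0.81 in the 3 cessation libraries, and the fitted median turned to 0.07 without cessation replicate 3 and to 0.01 without 10-week replicate 2. The 26 distal caput and corpus genes had a median of -0.27, or -0.53 and -0.11 without cessation replicates 2 and 3. Gpx5, a secreted glutathione peroxidase of the caput, took 3.62%, 3.86% and 3.91% of reads at 10 weeks and 2.80%, 4.05% and 1.97% after cessation, overlapping. Clu, the secreted chaperone clusterin, had 12370, 12210 and 12790 CPM and then 7437, 10180 and 5850 CPM, without overlap but with an adjusted p of 0.325 in edgeR. Adam7, a surface protein of the epididymis, had a log2 change of 0.01. The 16 basal cell markers were all above 0, with a median of 0.46 that was 0.06 without cessation replicate 3. The 24 cholesterol synthesis genes had a median of -0.22 with 5 above 0, or -0.57 to -0.05 with 1 library left out, the extremes without cessation replicates 2 and 3. Markers of germ cells and sperm were above 0 in 21 of 22, with a median of 0.73 (0.47 without cessation replicate 3). Their sum was 297, 345 and 240 CPM at 10 weeks and 466, 284 and 660 CPM after cessation. Such RNA can reach the duct with its content, but the source of these reads was not tested.

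Transcripts of the mitochondrial genome, which is transcribed as long precursors so that its genes are not independent, were higher in all 3 cessation libraries. The 12 tested mRNAs were all above 0 and all free of overlap, where 12% of all genes were, with a median of 1.29 (0.83 with length and GC trends removed) and no call (smallest adjusted p 0.0869, all 12 with unadjusted p under 0.05). They took 0.954%, 0.880% and 1.34% of reads at 10 weeks and 3.31%, 2.17% and 2.39% after cessation. Replicate 2 stood above all 10-week libraries here. The gene for cytochrome oxidase subunit 1, mt-Co1, had 3391, 3154 and 4935 CPM and then 12030, 8855 and 8224 CPM. Nuclear genes of the same machinery did not follow: complex I subunits had a median of -0.03 with 17 of 37 above 0, ATP synthase a median of 0.02 and the mitochondrial ribosome a median of -0.10 (-0.04 without cessation replicate 1, -0.15 with length and GC trends removed). Reads of mitochondrial genes can match nuclear copies, and the sources used here do not say how such reads were counted.

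A class of small structural RNAs, examined as a list after its values were seen, was also higher. These are short nuclear and cytoplasmic RNAs such as spliceosomal U1 and the transcription regulator 7SK, and their recovery depends on the RNA preparation. The class has 1939 entries, of which 1346 had no read in any of the 6 control libraries and 121 were tested. Of the 121, 119 were above 0, 86 stood higher without overlap and the median was 1.83 (1.08 with length and GC trends removed). A member near 0 in the 10-week controls could pass the low-count filter only through libraries where it was higher. These counts and the median therefore depend in part on the filter. Only 1 was called, Gm24336 (6.37, 6.98 and 6.77 CPM against 35.0, 15.8 and 41.8 CPM). Together the small structural RNAs took 1.77%, 1.79% and 1.72% of reads at 10 weeks and 4.22%, 2.50% and 4.69% after cessation. Most of this was 7SK alone, with 1.59%, 1.60% and 1.57% and then 2.9%, 2.11% and 3.47%. The rest of the class took 0.183%, 0.190% and 0.147% and then 1.3%, 0.39% and 1.2%. The entry U1 had 216, 244 and 217 CPM and then 6072, 863 and 5448 CPM, with an adjusted p of 0.0535 in edgeR. Replicate 2 was again the lowest of the cessation libraries, and the part of RNA composition in the 22 calls was not tested. With the small structural RNA genes removed from the table before fitting, 21 genes were called, 20 of them among the 22.

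**Figure D3:**
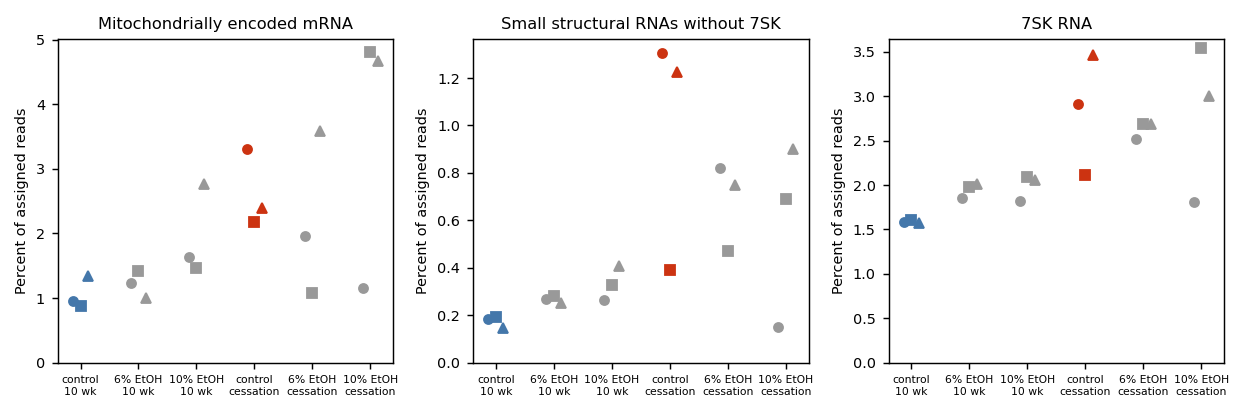
Percent of assigned reads (vertical) taken by mitochondrially encoded mRNA, by small structural RNAs other than 7SK, and by 7SK in each of the 18 libraries; blue and red are the controls of 10 weeks and of cessation, grey the EtOH groups, and circle, square and triangle are replicates 1, 2 and 3. Each red point lies above every blue point in all 3 panels.

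The same interval in the ethanol arms was set beside that in the controls. These comparisons share no library with the control comparison, although all are fitted in 1 model. In the 6% EtOH arm 35 genes rose after cessation and none fell (0.188% of genes tested higher), and 17 of the 22 genes called in controls were among them. This is 77.3% of the control list and 48.6% of the 6% EtOH list. All 22 were above 0, as were 54.1% of tested genes, with a median of 4.21 beside 3.77 in controls. In the 10% EtOH arm 4 genes rose (0.0215% of genes tested), of which Nr4a3 and Socs3 belong to the 22. The median of the 22 there was 2.09, and 20 were above 0 where 53.7% of tested genes were.

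Nr4a3 stood between 0.319 and 0.668 CPM in 6% EtOH at 10 weeks and at 26.7, 14.1 and 11.4 CPM after cessation. In 10% EtOH it stood at most at 0.268 CPM at 10 weeks, with no read in 1 library, and at 4.65, 9.99 and 6.99 CPM after cessation. Atf3 had at most 5.93 CPM in the 6 ethanol libraries of 10 weeks, and 309, 156 and 119 CPM (6%) and 65.8, 68.8 and 52.3 CPM (10%) after cessation. Fos and Fosb, which did not pass in controls, did so in both ethanol arms: their log2 changes were 6.63 and 7.81 at 6% and 6.00 and 6.63 at 10%.

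**Figure D4:**
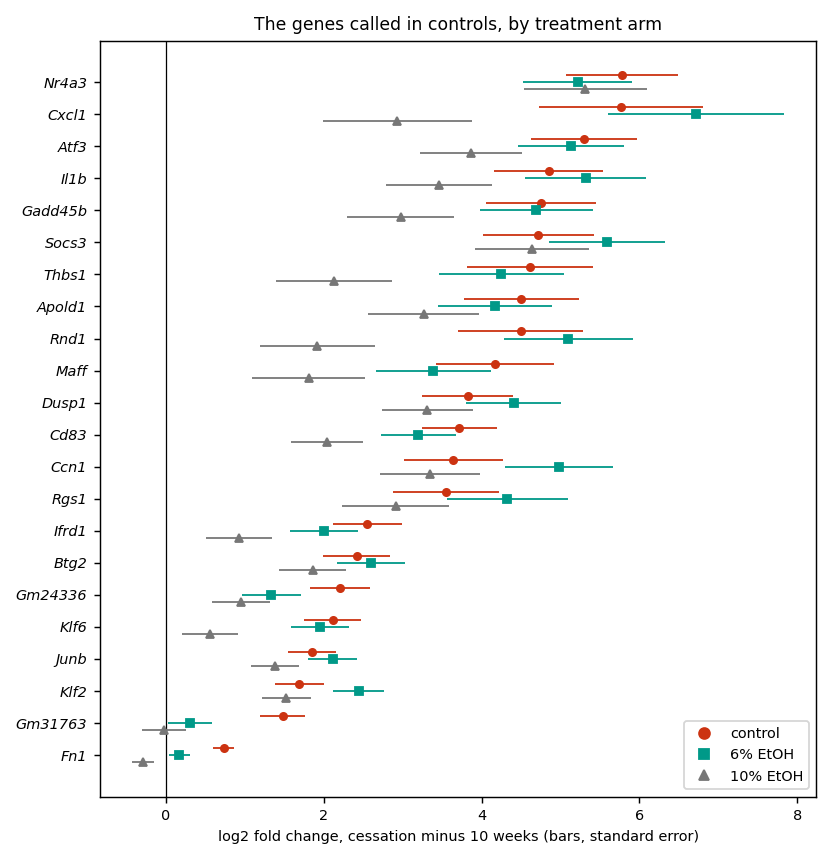
Log2 fold change from 10 weeks to cessation (horizontal, bars are SE) of the 22 genes called in controls, for controls (red circles), 6% EtOH (green squares) and 10% EtOH (grey triangles), 3 libraries per group and time. Nr4a3 is at 5.78, 5.22 and 5.31, whereas Fn1 is at 0.73, 0.17 and -0.29.

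A test of the control change against the mean change of both ethanol arms called no gene in edgeR (smallest adjusted p 0.790, 1148 genes with unadjusted p under 0.05), 1 gene in DESeq2 and none in limma. The 22 genes were picked by their control change, which this contrast also contains, so the choice itself favours a larger change in controls. Of the 22 genes, 17 had the larger change in controls, and 4 had an unadjusted p under 0.05. Fn1 had the smallest of these, 1.4e-04 before and 0.790 after adjustment, with a difference of 0.79 ± 0.16 (SE) on the log2 scale. In 6% EtOH its levels were 43.0, 42.7 and 48.9 CPM at 10 weeks and 55.7, 49.5 and 45.7 CPM after cessation, and in 10% EtOH they were 47.8, 54.7 and 46.5 CPM and then 40.8, 32.3 and 48.5 CPM. The sets overlapped in both arms. Gm31763, a predicted antisense gene whose reads cannot be told from those of its partner without the strand setting, had 6.11, 6.53 and 5.21 CPM in controls at 10 weeks and 12.11, 12.03 and 25.6 CPM after cessation. Its log2 changes were 0.30 at 6% and -0.03 at 10%, and its difference had an unadjusted p of 9.96e-04.

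**Figure D5:**
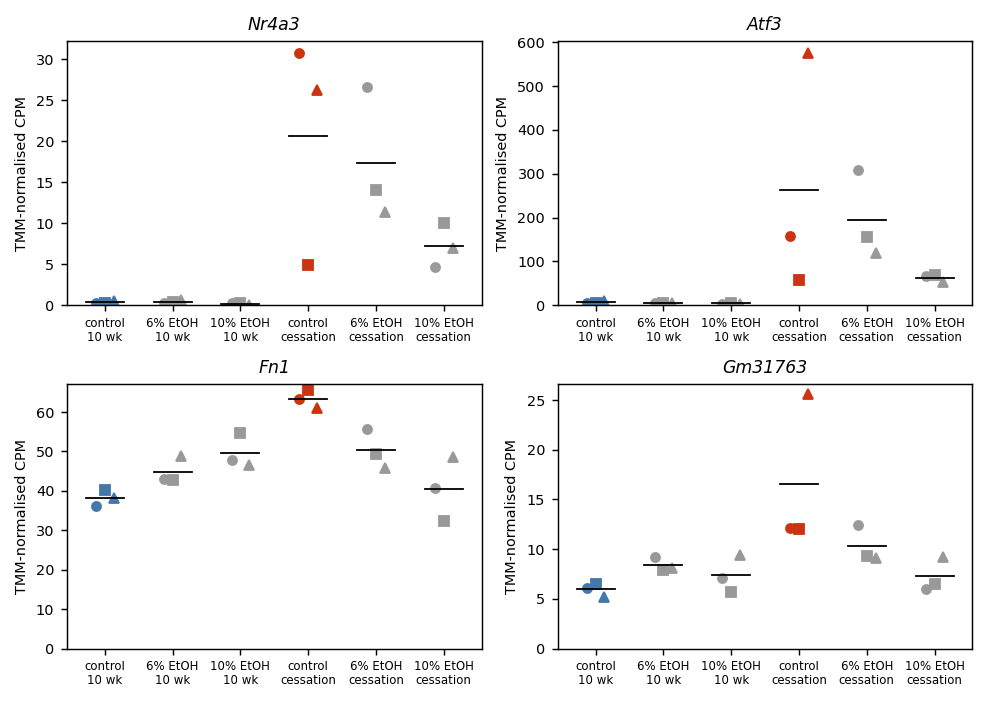
TMM-normalised CPM (vertical, from 0) of Nr4a3, Atf3, Fn1 and Gm31763 in the 18 libraries; bars are means of 3, blue and red are the controls of 10 weeks and of cessation, grey the EtOH groups. Nr4a3 and Atf3 are high in all 9 cessation libraries, while the control cessation libraries of Fn1 (61.1 to 65.5 CPM) lie above those of every other group.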

How the data were processed

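The authors deposited whole-number counts of reads per gene for 18 caput libraries. The submitters' processing notes name featureCounts, STAR, Trimmomatic and build GRCm39 (mm39), and the sources used here give no annotation, strand setting or versions. RNA was prepared as total RNA on RNeasy columns, per the labels' protocols. Genes were kept by filterByExpr (minimum count 10, minimum total 15). All 18 libraries, in 6 groups, were fitted with TMM scaling and edgeR 4.0.16 robust quasi-likelihood tests (R 4.3.3, two-sided, Benjamini-Hochberg adjusted p under 0.05), checked on simulated data. Alternatives used DESeq2 1.42.0 and limma 3.58.1. Replicates, numbered in order of deposit, differed by more than counting noise. Named genes were the 12 largest called changes in each direction without overlap and with mean log2 CPM over the 6 controls not under 1, up to 4 called or 2 uncalled members per list, the 5 most abundant genes and, added after values were seen, the remaining called genes and those marked in the text. List ratios use a pseudocount of 0.5 CPM. The lists and genes were chosen with earlier results of these data known. The annotation at hand is of an earlier build, so gene positions on GRCm39 are not given.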

Additional observations from a re-analysis of the deposited data

How the results depend on the processing

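The 22 calls became 993 with DESeq2 (734 higher, 259 lower), 1740 without the low-count filter (1424 higher, 316 lower), 34 after length and GC trends were removed, and 0 with the 6 control libraries alone. With 1 control library left out they ranged from 0 to 2747 (0 to 1609 higher, 0 to 1138 lower). Lists with a called member, 6 of 48, became 36, 42 and 0 with DESeq2, without the filter and with 6 libraries, and 0 to 41 with 1 library left out. Of the 22 genes, the 2 called in 10% EtOH became 13, 19 and 0 with DESeq2, without the filter and with limma, and 1 to 12 with 1 library left out; the 17 called in 6% EtOH stayed between 15 and 20. The contrast between arms gave 1 call with DESeq2 and 216 without the filter. The cause of these shifts was not tested. Adam7, at 0.01, turned to -0.10 with limma and -0.17 after trend removal, and ranged from -0.25 to 0.29 with 1 library left out; Klrb1c, at -0.30, ranged from -0.87 to 0.069 with 1 library left out, the last without cessation replicate 3. The 22 genes kept an unadjusted p under 0.05 and a positive change with the 6 libraries alone. The 6-library fit gives no value for the ethanol arms. The setting without small structural RNAs was chosen after seeing the data. No paired analysis was possible because replicate numbers follow the order of deposit.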
